A study of Rattus norvegicus with 8 samples.

Results

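The reticulon genes Rtn1, Rtn2, Rtn3 and Rtn4 and the Nogo receptor gene Rtn4r were followed in rat frontal cortex after repeated olanzapine. The members were all probe sets whose platform gene symbol was exactly 1 of these 5 symbols, which gave 5 of 14217 genes with a probe set of 1 symbol and 10 of 31042 probe sets, controls left out: 1 for Rtn1, 1 for Rtn2, 3 for Rtn3, 2 for Rtn4 and 3 for Rtn4r. RNA came from male Sprague-Dawley rats, an outbred albino strain, that weighed about 200 g at the start and received either olanzapine, an antipsychotic drug, at 2 mg/kg per day into the peritoneum, or saline, in both cases for 21 days. Of 20 rats assigned to each treatment, 4 per group were put on arrays, and each array is called here by its group and animal number (saline 14, 15, 17 and 19, olanzapine 9, 14, 18 and 19). No genetic change or second treatment is given for either group, and an array of dissected cortex mixes all its cell types, so fewer cells of a type and less RNA per cell cannot be told apart.

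Reticulons are membrane proteins of the endoplasmic reticulum whose shared C-terminal domain inserts into the membrane as hairpins and bends it into tubules. The product of Rtn4, called Nogo, is also displayed on oligodendrocytes and myelin, where it limits neurite growth in the adult central nervous system. On neurons the lipid-anchored receptor encoded by Rtn4r binds Nogo and other myelin ligands and signals through co-receptors to the GTPase RhoA and its kinases.

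The promoter windows of the 3 genes with the most negative differences below are printed to show how unlike their starts are. Each window runs from 250 bases before to 50 bases after the annotated start in RefSeq on GRCr8, and 4 of the 5 member genes, Rtn1, Rtn2, Rtn3 and Rtn4r, were matched by symbol. Capitals mark matches on either strand to the GC box GGGCGG, the half-site TGACG of the cyclic AMP response element and the TATA box TATAAA, which were chosen after the windows had been read. The Rtn1 window is chr6:96719291-96719590 on the minus strand, that of Rtn2 is chr1:88063042-88063341 on the plus strand and that of Rtn3 is chr1:214098311-214098610 on the minus strand.
Rtn1: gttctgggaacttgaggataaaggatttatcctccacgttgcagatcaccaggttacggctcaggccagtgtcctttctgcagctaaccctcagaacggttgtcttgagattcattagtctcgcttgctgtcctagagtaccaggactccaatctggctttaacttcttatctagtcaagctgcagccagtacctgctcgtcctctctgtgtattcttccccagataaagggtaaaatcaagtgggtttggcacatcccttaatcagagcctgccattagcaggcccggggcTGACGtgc
Rtn2: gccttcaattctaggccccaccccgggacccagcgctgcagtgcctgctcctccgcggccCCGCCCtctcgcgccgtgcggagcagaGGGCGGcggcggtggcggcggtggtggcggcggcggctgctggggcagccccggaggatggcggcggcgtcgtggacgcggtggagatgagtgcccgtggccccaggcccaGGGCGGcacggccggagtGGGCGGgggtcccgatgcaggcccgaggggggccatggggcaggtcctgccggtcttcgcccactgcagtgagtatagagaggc
Rtn3: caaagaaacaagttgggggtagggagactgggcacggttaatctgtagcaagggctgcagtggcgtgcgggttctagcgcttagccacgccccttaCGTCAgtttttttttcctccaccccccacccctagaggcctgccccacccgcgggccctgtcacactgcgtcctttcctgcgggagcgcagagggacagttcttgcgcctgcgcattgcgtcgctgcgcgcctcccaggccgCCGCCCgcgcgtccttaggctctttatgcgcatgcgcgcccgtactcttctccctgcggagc

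The Rtn1 window held 7 CG dinucleotides, and the median of all 33469 rat promoter windows was also 7 CG. The other windows were richer, with 33 CG in Rtn2, 27 in Rtn3 and 48 in Rtn4r, the last above 99.0% of all windows. GC boxes numbered 0 in Rtn1, 4 in Rtn2, 1 in Rtn3 and 6 in Rtn4r, counting overlapping matches, and 33.1% of all windows held at least 1. The half-site TGACG occurred once each in Rtn1, Rtn3 and Rtn4r and in 21.2% of windows, and TATAAA was in none of the 4 windows and in 14.2% of all.

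Values are the deposited linear intensities, already scaled by the authors so that the arrays share a trimmed mean, and differences are olanzapine minus saline on the log2(intensity + 63.42) scale with limma's standard error (SE). This scale understates changes of dim probe sets. The levels of different probe sets are not set against each other, since each responds to its own target with its own brightness. The 5 genes were selected on this contrast, since the lower intensities of Rtn1 on these olanzapine arrays were known when the family was picked, so the differences of the 10 probe sets are given as a description and carry no test. The filter on dim probe sets, at the 40th percentile of mean log2 intensity over all arrays, left all 10 members and 18625 probe sets in all.

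Across the family, Rtn1 and Rtn2 had the most negative differences, the brightest Rtn3 probe set was lower by a smaller amount, and Rtn4 and Rtn4r had differences below their SE. Of the 10 member probe sets, olanzapine was lower in 7 and higher in 3, where 44.0% of all tested probe sets were lower. Their median difference was -0.074, beside 0.027 over all tested probe sets. The limma fit with Benjamini-Hochberg adjustment called 0 of the 10 members at an adjusted p of 0.05, and percent called over all tested probe sets was 0.0%, although 1549 (8.32%) had an unadjusted p under 0.05. The groups did not overlap for 1 member, Rtn1, and for 2.07% of all tested probe sets in the lower direction. Nothing is read from these counts, since the members were picked with this comparison known.

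Rtn1 encodes the reticulon that is prominent in neurons and neuroendocrine cells. Its probe set 1368097_a_at had intensities of 13304, 13699, 13088 and 12238 in saline 14, 15, 17 and 19, and of 10743, 9220, 10076 and 10477 in olanzapine 9, 14, 18 and 19. Every olanzapine array lay below every saline array, with saline 19 the lowest of its group and olanzapine 14 the lowest of all. The mean was 13082 ± 617 for saline against 10129 ± 665 for olanzapine (SD, n = 4 each), a difference of -0.37 (SE 0.08), or 0.775-fold. The spread within a group was small, with a coefficient of variation of 4.7% in saline and 6.6% in olanzapine.

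**Figure D1:**
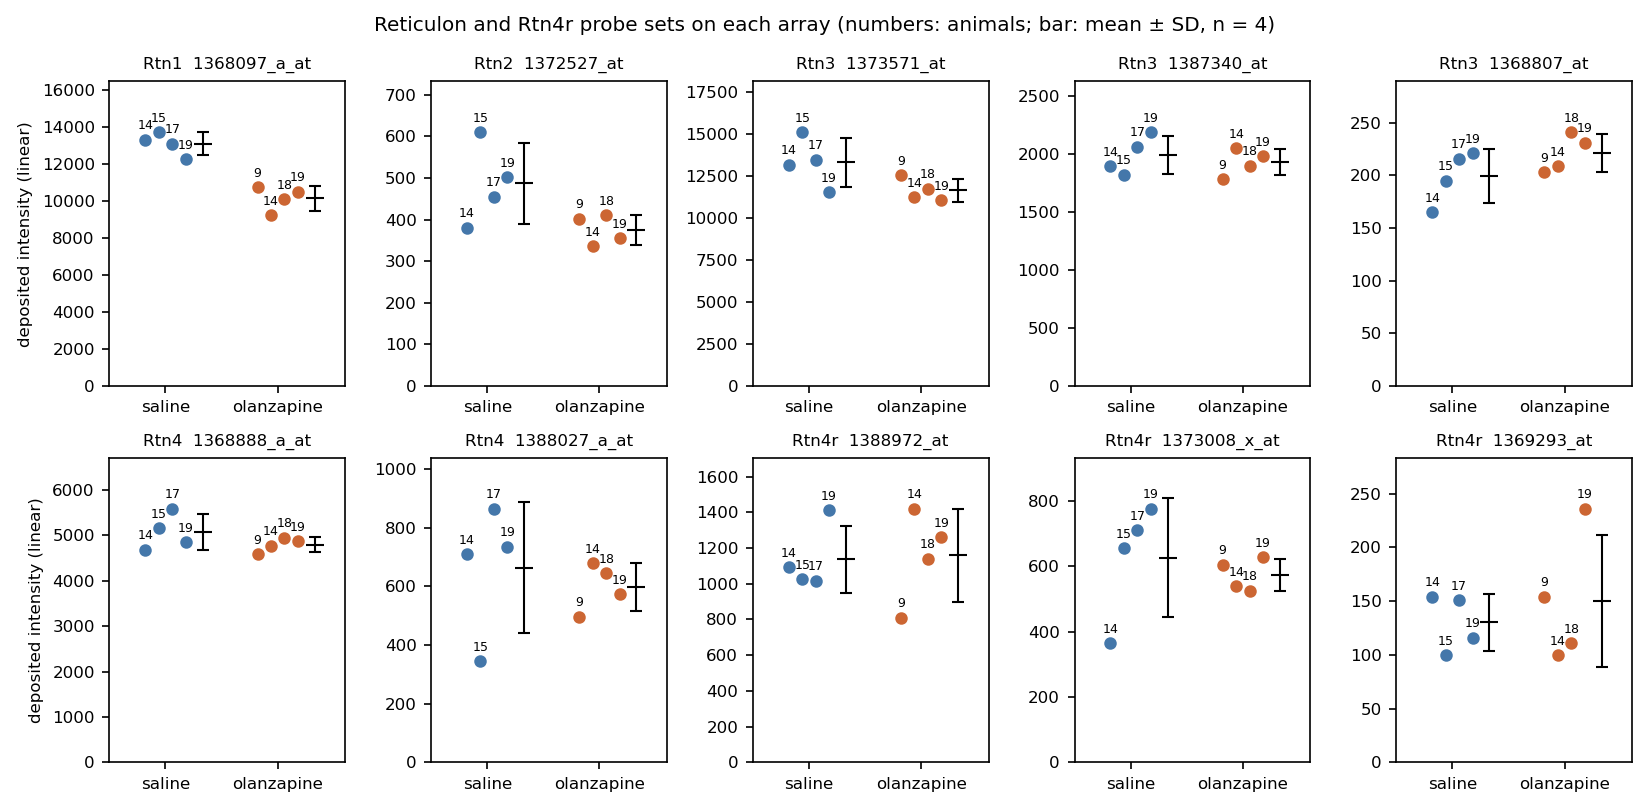
Deposited linear intensity of each of the 10 probe sets on each array, with animal numbers beside the points and the mean ± SD (n = 4) as a black bar. In the Rtn1 panel the olanzapine arrays lie between 9220 and 10743, all below the saline arrays, and in every other panel the groups overlap.

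The size of the Rtn1 difference depended on the scaling of the arrays. Rtn1 lay at percentile 99.3 of brightness among tested probe sets, and the brightest 5%, 932 probe sets, had a median difference of -0.15, with 88.7% of them lower in olanzapine and 18.6% lower without overlap. Among these 932, 24 had a more negative difference than Rtn1. After quantile normalization, which gives all arrays the same distribution, the median difference of the brightest 5% was 0.000362 and that of Rtn1 was -0.149 (SE 0.05). The log2 values of Rtn1 were then 13.53 to 13.67 in saline and 13.38 to 13.47 in olanzapine, and 68 of the 932 had a more negative difference. These ranges did not overlap. The share of all probe sets without overlap was not counted under this scaling, so nothing is read from that. The ranks of Rtn1 among the 932 are a description and carry no test, since the gene was selected on this contrast.

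**Figure D2:**
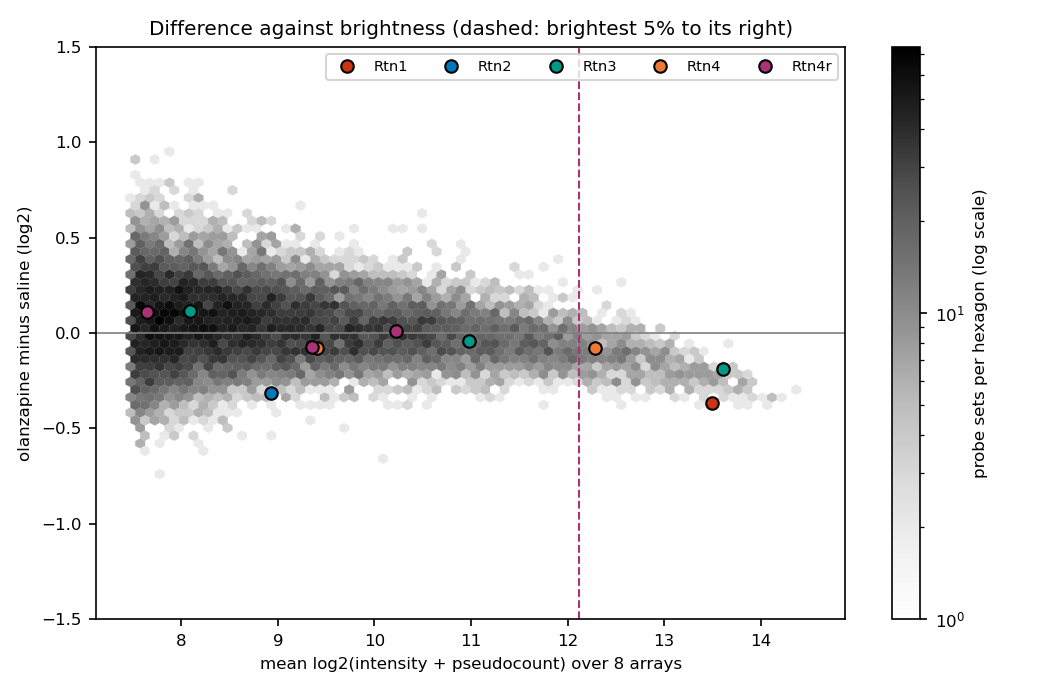
Difference between olanzapine and saline (log2) against mean log2 intensity over 8 arrays for all 18625 tested probe sets, shaded by number per hexagon, with the 10 member probe sets in colour and the dashed line at the start of the brightest 5%. The cloud bends below 0 at its bright end, where the Rtn1 probe set, at -0.37, lies on its lower edge and the brightest Rtn3 probe set, at -0.19, lies inside it.

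Rtn2 encodes a reticulon of nerve and muscle and had 1 probe set of middling brightness, 1372527_at. Its intensities were 380, 610, 455 and 502 in saline 14, 15, 17 and 19 and 402, 336, 410 and 355 in olanzapine 9, 14, 18 and 19. Saline 15 was the highest, and saline 14 lay inside the olanzapine range, so the groups overlapped. The means of 487 ± 96.2 and 376 ± 35.8 (SD, n = 4 each) differed by -0.31 (SE 0.15). Unlike that of Rtn1, this difference was not smaller after quantile normalization, at -0.367 (SE 0.15). Without saline 15 it was -0.209 and without saline 14 it was -0.41.

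Rtn3 encodes a reticulon that binds the beta-secretase that cuts the amyloid precursor protein, and its 3 probe sets did not run the same way. The brightest, 1373571_at, had intensities of 13141, 15082, 13440 and 11516 in saline 14, 15, 17 and 19 and of 12544, 11212, 11728 and 11038 in olanzapine 9, 14, 18 and 19. Saline 19 lay inside the olanzapine range, and the other 3 saline arrays lay above all olanzapine arrays. The means of 13295 ± 1461 and 11631 ± 676 (SD, n = 4 each) differed by -0.19 (SE 0.09). The sign turned to 0.0462 (SE 0.05) after quantile normalization, and the difference was -0.002 after cyclic loess. Among the 932 brightest probe sets, 372 had a more negative difference than this probe set as deposited, and 652 after quantile normalization.

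The other Rtn3 probe sets were dimmer and had differences below their SE. For 1387340_at the intensities were 1824 to 2189 in saline and 1785 to 2050 in olanzapine, with means of 1993 ± 165 and 1930 ± 115 and a difference of -0.04 (SE 0.10). For 1368807_at they were 165 to 221 in saline and 203 to 241 in olanzapine, with means of 199 ± 25.4 and 221 ± 18.1 (SD, n = 4 each) and a difference of 0.12 (SE 0.17). Where in the Rtn3 transcripts each probe set binds was not used here, so the disagreement cannot be assigned to an isoform.

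Within each array the log2 ratio of the Rtn1 probe set to the brightest Rtn3 probe set is free of any factor that scales the whole array. It was 0.02, -0.14, -0.04 and 0.09 in saline 14, 15, 17 and 19 and -0.22, -0.28, -0.22 and -0.08 in olanzapine 9, 14, 18 and 19. Only olanzapine 19 came within the saline range, and the mean was -0.02 ± 0.10 for saline against -0.20 ± 0.09 for olanzapine (SD, n = 4 each). The difference of -0.18 describes unequal change of these probe sets within arrays and does not say which of them changed. Nothing is read from the separation, since Rtn1 was selected on this contrast. The ratio also does not remove a shift that depends on brightness, although the 2 probe sets lie at similar percentiles, 99.3 for Rtn1 and 99.5 for Rtn3.

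Rtn4 encodes Nogo, and neither of its 2 probe sets separated the groups. The brighter, 1368888_a_at, had intensities of 4683, 5150, 5583 and 4852 in saline 14, 15, 17 and 19 and of 4582, 4773, 4948 and 4868 in olanzapine 9, 14, 18 and 19. Saline 17 was the highest array, and 3 of the olanzapine arrays lay within the saline range. The means of 5067 ± 395 and 4793 ± 158 (SD, n = 4 each) differed by -0.08 (SE 0.08), and by 0.0289 (SE 0.07) after quantile normalization, so the sign depends on the scaling. The dimmer, 1388027_a_at, ran from 344 in saline 15 to 864 in saline 17 and from 496 to 679 in olanzapine. Its difference was -0.08 (SE 0.21), which was -0.337 without saline 15 and 0.059 without saline 17, a range set by the saline arrays.

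Rtn4r, the receptor gene, had 3 probe sets, of which 2 were designed from the same sequence record, BF386649. The brightest, 1388972_at, had intensities of 1094, 1025, 1017 and 1413 in saline 14, 15, 17 and 19 and of 811, 1420, 1141 and 1262 in olanzapine 9, 14, 18 and 19. Saline 19 was high and olanzapine 9 low within their groups, and the groups overlapped widely. The means of 1137 ± 187 and 1158 ± 258 (SD, n = 4 each) differed by 0.01 (SE 0.16), which became -0.0166 under quantile normalization and ran from -0.091 without olanzapine 14 to 0.163 without olanzapine 9.

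The second probe set from that record, 1373008_x_at, ran from 364 in saline 14 to 776 in saline 19 and from 525 to 627 in olanzapine. Its difference was -0.07 (SE 0.18), -0.287 without saline 14 and 0.038 without saline 19. The dimmest, 1369293_at, lay at percentile 7.9 of brightness and ran from 100 to 154 in saline and from 100 to 236 in olanzapine, with olanzapine 19 the highest. Its difference was 0.11 (SE 0.23), and -0.064 without olanzapine 19. For all 3 probe sets of the receptor the spread between animals was thus larger than the difference between treatments.

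**Figure D3:**
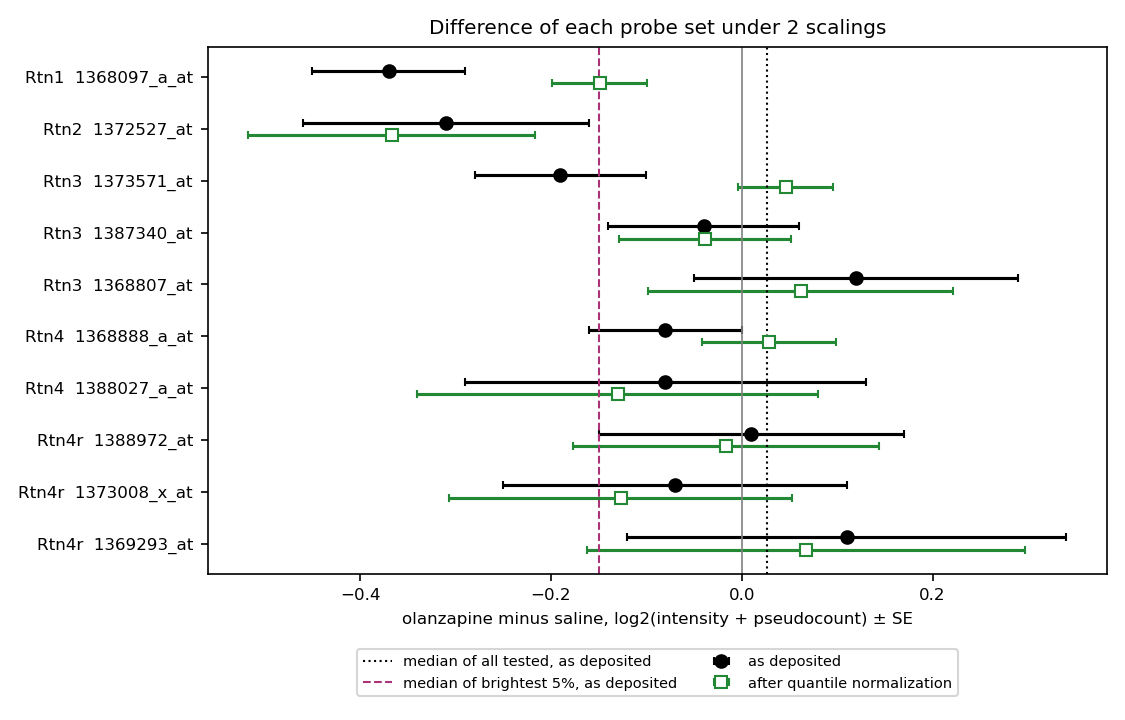
Difference between olanzapine and saline (log2 ± SE) for each member probe set as deposited (filled circles) and after quantile normalization (open squares), with vertical lines at 0, at the median of all tested probe sets (0.027) and at that of the brightest 5% (-0.15). Rtn1 moves from -0.37 to -0.149, Rtn2 from -0.31 to -0.367, and the brightest Rtn3 probe set crosses 0 to 0.0462.

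The arrays differed at their bright end in a way that ran with treatment apart from 1 animal. The 98th percentile of intensity was at least 6127 in saline 14, 15 and 17, but 5567 in saline 19, which is inside the olanzapine range of 5451 to 5692. Saline 19 was also the saline array with the lowest values of Rtn1 and of the brightest Rtn3 probe set, and with the highest values of the other 2 Rtn3 probe sets and of Rtn4r probe set 1388972_at. Without saline 19 the limma fit called 106 probe sets, the difference of Rtn1 was -0.40 and that of the brightest Rtn3 probe set was -0.254. Rtn1 was 1 of the 106, and nothing is read from that call, since the gene was selected on this contrast. Saline 15 stood apart in another way, with the lowest array weight, 0.52, and the lowest median correlation with the other arrays, 0.953. With array weights the difference of Rtn2 was -0.253 and that of Rtn1 was -0.374. Without saline 15 the difference of the brightest Rtn3 probe set was -0.125 and that of Rtn1 was -0.346. The part of the bright end in these differences was not tested, beyond the values after quantile normalization and cyclic loess, where Rtn1 was at -0.149 and -0.19.

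**Figure D4:**
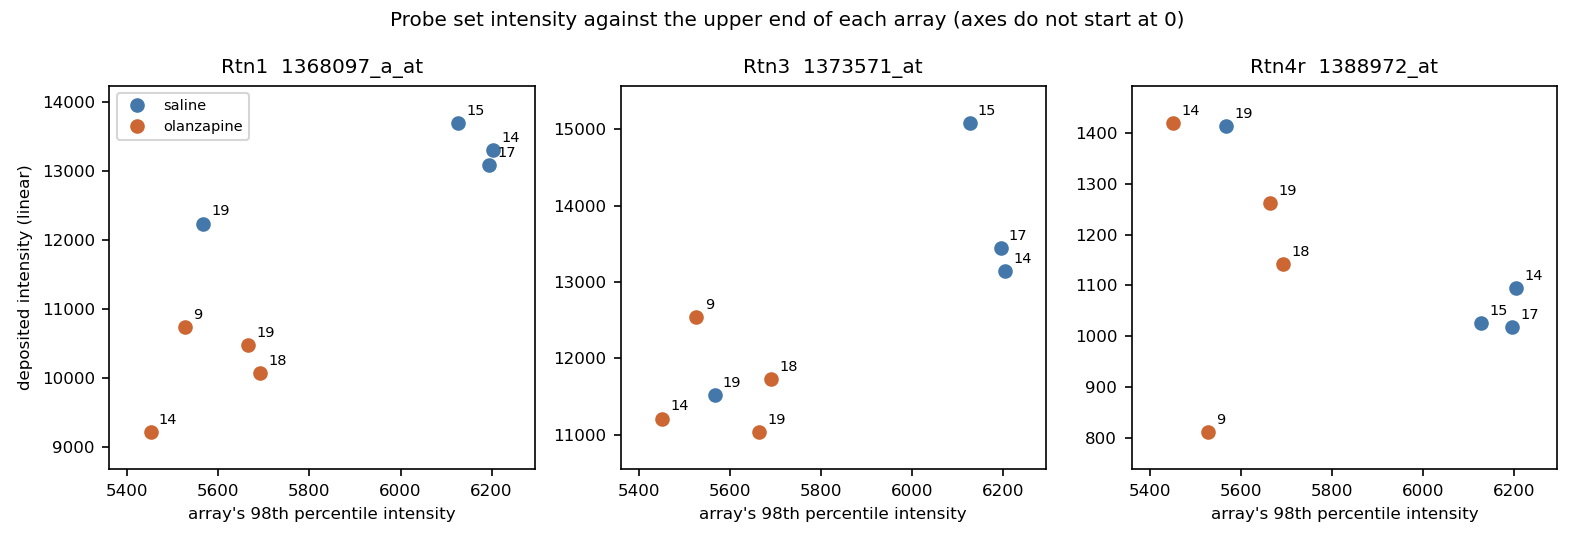
Deposited intensity of the Rtn1, the brightest Rtn3 and the brightest Rtn4r probe set on each array against the 98th percentile of that array's intensities, with animal numbers. Saline 19 sits among the olanzapine arrays on the horizontal axis, at 5567, and among them in Rtn3 but above them in Rtn1.

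Variation between animals within the groups was compared among the members after each group's mean had been removed. Over the 7 pairs within Rtn3, Rtn4 and Rtn4r, Pearson's r ran from -0.88 to 0.57 over the 8 arrays. The most extreme pair was the brightest and the middle Rtn3 probe set, with r = -0.88 (exact two-sided permutation p = 0.0122 over the 576 rearrangements within groups, 0.0851 adjusted over the 7 pairs) and Spearman's rho = -0.79 (exact permutation p = 0.0625, adjusted 0.438). Without saline 15 and saline 19, the arrays farthest from the median, r was -0.72, and after quantile normalization it was -0.22. For the Rtn4 pair r was 0.14 (rho 0.12, exact permutation p = 0.858 for r, adjusted 0.953). For the Rtn4r pair from the same record r was 0.08 (rho 0.14, exact permutation p = 0.811 for r, adjusted 0.953). None of the 7 pairs passed the adjustment, by r or by rho.

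Between genes, the brightest probe sets of Rtn1 and Rtn3 had r = 0.69 over the 8 arrays, Rtn1 and Rtn4r had r = -0.81, and Rtn3 and Rtn4r had r = -0.79. After quantile normalization these were -0.04, 0.16 and -0.30. For Rtn2 and Rtn3 r was 0.48 as deposited and 0.66 after quantile normalization. These values describe 8 arrays that share the scaling, and no test was made of them.

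The genes whose pattern over the 8 arrays was most like that of a member were taken from 10118 other genes by the highest r of group-centred values, so no p is given. For Rtn1 they were Spop, an adaptor of a ubiquitin ligase (r = 0.984), the transcription factor gene Tfcp2 (0.971) and Vamp8, which encodes a vesicle fusion protein (0.968). After quantile normalization these were -0.11, -0.29 and -0.35, so the likeness to Rtn1 was not kept. For Rtn2 they were Acan, which encodes the matrix proteoglycan aggrecan (0.981), the co-chaperone gene Dnajc7 (0.973) and Rita1 (0.973), all at 0.97 after quantile normalization and at 0.90 to 0.92 without saline 14 and saline 15. For Rtn3 they were Anks1a (0.981), Ubl3 (0.979) and Ctnnbl1 (0.972), and after quantile normalization Ubl3 was at 0.89 and the others at 0.55 and 0.49. For Rtn4 they were Mtx1 (0.963), Tmbim1 (0.957) and the synaptic vesicle fusion gene Vamp1 (0.953), at 0.70, 0.56 and 0.74 after quantile normalization. For Rtn4r they were Dclk3 (0.962), Tlcd4 (0.961) and Ddx27 (0.961), at 0.93 to 0.94 after quantile normalization.

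Beyond the members, 41 genes were listed that act with Nogo and its receptor or shape the endoplasmic reticulum. Of the 33 left by the filter, 0 passed the limma fit's adjustment, and the smallest limma adjusted p was 0.333. Of these 33, 14 were higher and 19 lower in olanzapine. Beside these and the list counts below, 44.0% of all tested probe sets were lower, and their median difference was 0.027. This background is not matched for brightness, and the lists use the brightest probe set of each gene. At an unadjusted p under 0.05 there were 4 of the 33, Olfm1, Rtn4rl2, Dpysl2 and Ktn1, beside 8.32% of all tested probe sets, and the differences of Olfm1 and Dpysl2 were -0.016 and 0.042 after quantile normalization. The limma fit without saline 19 called 106 probe sets in all. Among them were Dpysl2 (difference -0.35, limma adjusted p 0.0332) and Ktn1 (0.87, limma adjusted p 0.0376). Nothing is read from these calls, since the lists were chosen with earlier results of these data known.

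Among the other ligands of the Nogo receptor, 3 of 4 were lower, with a median difference of -0.172. Mag, the myelin-associated glycoprotein gene, was at 225 to 420 in saline and 241 to 430 in olanzapine, a difference of 0.017 (SE 0.20, limma adjusted p 0.991). Omg, which encodes oligodendrocyte myelin glycoprotein, was at 1511 to 1801 in saline and 1181 to 1567 in olanzapine, a difference of -0.173 (SE 0.11, limma adjusted p 0.746). Olfm1, an olfactomedin gene, had all 4 olanzapine arrays (11793 to 13014) below all saline arrays (13630 to 17113), a difference of -0.268 (SE 0.08, limma adjusted p 0.390). Like Rtn1 it is bright, and after quantile normalization its difference was -0.016, while its other probe set was at -0.06 as deposited. Such separation was common at this brightness. Of the brightest 5% of probe sets, 18.6% were lower without overlap as deposited, beside 2.07% of all tested. Lgi1, which encodes a secreted synaptic protein, differed by -0.171 (SE 0.11).

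Among the other receptors and co-receptors, 4 of the 5 genes left by the filter were higher, with a median of 0.114. Rtn4rl2, a homologue of the receptor gene, had intensities of 246, 237, 327 and 356 in saline 14, 15, 17 and 19 and of 549, 499, 376 and 408 in olanzapine 9, 14, 18 and 19. All olanzapine arrays lay above all saline arrays, where 2.4% of tested probe sets did so. Its difference was 0.558 (SE 0.17, limma adjusted p 0.383) and 0.503 after quantile normalization, so it was positive under both scalings and not past the threshold.

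The other homologue, Rtn4rl1, differed by -0.11 (SE 0.17) and the co-receptor gene Lingo1 by 0.223 (SE 0.14), with 1298 to 2169 in saline and 1744 to 2216 in olanzapine. The co-receptor genes Ngfr and Tnfrsf19 did not pass the filter, with intensities of 8.9 to 99.6 and 4.1 to 72.1, and no difference is read from them. S1pr2, a sphingosine phosphate receptor gene, differed by 0.114 (SE 0.22).

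Downstream of the receptor, Rhoa differed by 0.092 (SE 0.11), and 3 of 6 measured genes were higher and 3 lower. The RhoA-activated kinase gene Rock2 differed by 0.196 (SE 0.11), with all 3 of its probe sets higher, and Limk2, a kinase gene of the same route to actin, by 0.228 (SE 0.19). Dpysl2, which encodes a collapsin response mediator that binds tubulin, differed by -0.282 (SE 0.08, limma adjusted p 0.374), and quantile normalization moved this to 0.042. The mitochondrial reticulon-binding gene Rtn4ip1 differed by 0.087 (SE 0.17), and the beta-secretase gene Bace1 did not pass the filter.

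Of the 17 genes that shape tubules and sheets of the endoplasmic reticulum, the log2 difference was below 0 in 12, of which Atl1 was at -0.001, and above 0 in 5, and the median was -0.062, or -0.093 after quantile normalization. Ktn1, which encodes a kinesin-binding protein of its sheets, had intensities of 388, 556, 562 and 851 in saline 14, 15, 17 and 19 and of 915, 1283, 832 and 865 in olanzapine 9, 14, 18 and 19. Saline 19 was above olanzapine 18, and the difference was 0.694 (SE 0.19, limma adjusted p 0.333). Arl6ip1, a hairpin protein gene of tubules, differed by -0.224 (SE 0.11) under both scalings, and the tubule gene Reep3 by 0.232 (SE 0.12). The counts use 1 probe set per gene. Among the 12 lower genes, the other probe sets of Atl1, Atl3 and Spast were higher, at 0.29, 0.33 and 0.10. Those of Reep5 and Zfyve27 were lower, at -0.03 and -0.19.

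**Figure D5:**
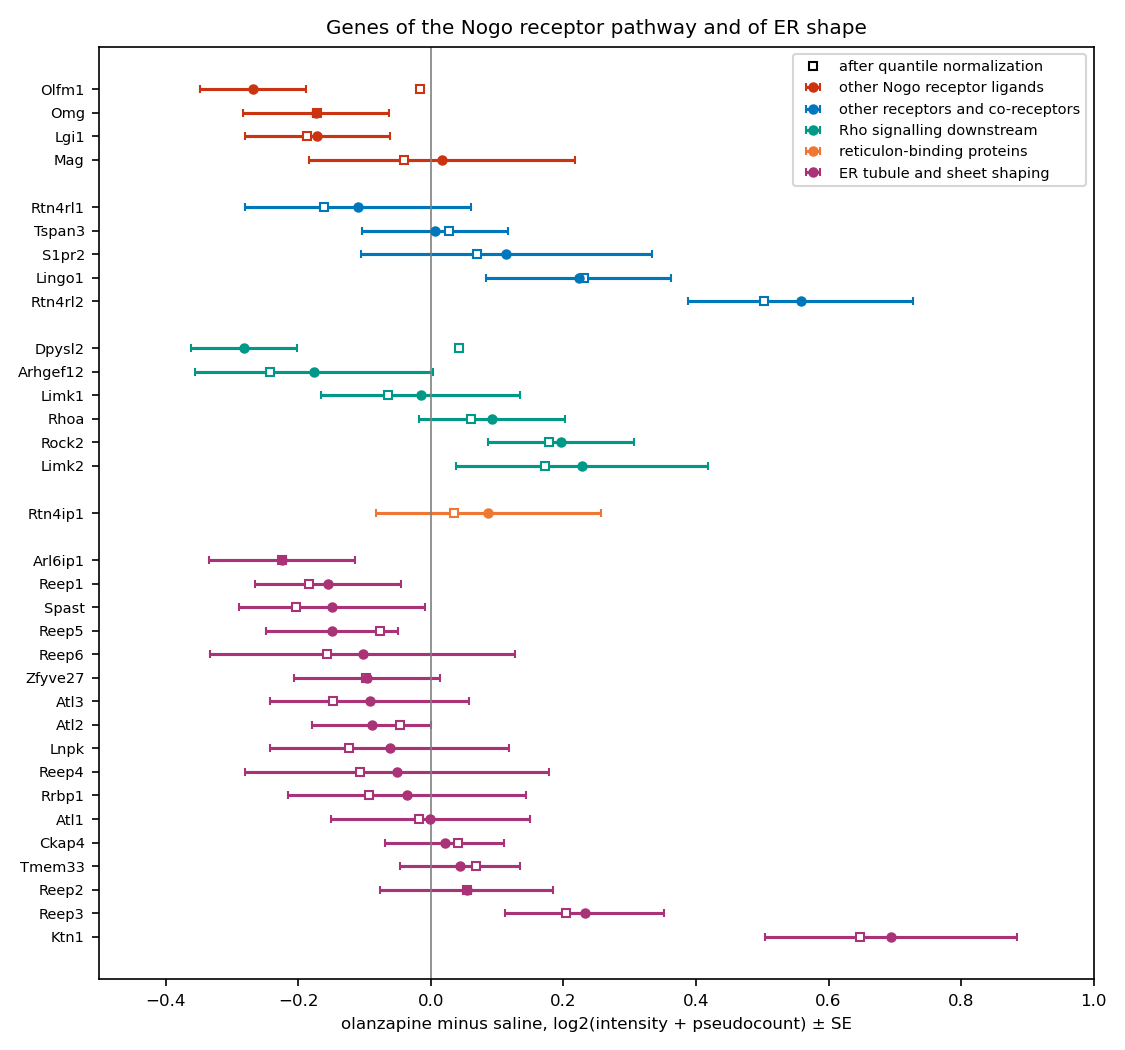
Difference between olanzapine and saline (log2 ± SE) for the 33 listed genes left by the filter, 1 probe set per gene, coloured by list, with open squares for the value after quantile normalization. Ktn1 (0.694) and Rtn4rl2 (0.558) have the largest positive values under both scalings, whereas Olfm1 and Dpysl2 move close to 0 after quantile normalization.

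Markers of the tissue and of its cell types were read beside these results. Of the markers of cortical excitatory neurons, Slc17a7 was at 2198 to 2640 and Neurod6 at 1004 to 1625 over the 8 arrays, whereas Tbr1 did not pass the filter. Neuron markers summed to 36149 to 43889 in saline and 36005 to 40264 in olanzapine, with 3 of 7 measured genes higher as deposited and all but 1 higher after quantile normalization, where their median difference turned from -0.034 to 0.031. Oligodendrocyte markers summed to 16284 to 27411 in saline and 17613 to 25598 in olanzapine, with 7 of 9 higher as deposited and all but 1 after quantile normalization. All 6 astrocyte markers were lower in olanzapine as deposited (sums of 36747 to 42441 in saline and 33638 to 37570 in olanzapine), and 5 were lower after quantile normalization. The exception, Gja1, was the brightest of them, with means of 20984 in saline and 17942 in olanzapine. Its difference was 0.08 after quantile normalization. All 6 measured meningeal markers were higher (sums of 2148 to 2817 in saline and 2860 to 7971 in olanzapine). All sums are of deposited intensities and are set mostly by the brightest probe sets of a list. As deposited, the 3 measured striatal neuron markers were lower in olanzapine. The 3 measured microglia markers were higher, C1qa by only 0.015 (SE 0.21). The striatal markers Drd2 and Adora2a and the microglia markers Cx3cr1, C1qb and Itgam did not pass the filter. The means in saline and olanzapine were 70.3 and 20.9 for Cx3cr1, 39.7 and 35.5 for C1qb, and 9.02 and 9.92 for Itgam. No difference is read from such dim values, so the microglia count covers only part of its list. Of the 5 endothelial markers, 4 were higher. After quantile normalization, 3 striatal, 1 microglia and 2 endothelial markers were lower. No marker was at 0 on any array, and the part of the marker shifts in the reticulon values was not tested.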

How the data were processed

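The table holds the deposited linear probe set intensities of 8 arrays of frontal cortex RNA, 4 per group. All arrays had a trimmed mean (2% cut at each end) of 500.1 to 500.2, so these intensities had been scaled by the authors. The software and background correction behind the intensities are not stated in the sources read, and the number of arrays limits the precision. Intensities were converted to log2 after adding 63.42, the 25th percentile of all values. The 18625 probe sets above the 40th percentile of mean log2 were fitted with limma 3.58.1 under R 4.3.3 (lmFit, eBayes with trend), two-sided, with Benjamini-Hochberg adjustment at 0.05, and the code was tested on simulated data. Names came from the platform's annotation, with symbols of non-members updated through RefSeq (GRCr8). Pathway genes use the probe set with the highest mean. Named were all member probe sets, the 3 genes of smallest p per pathway list, 8 genes fixed by name and the 3 genes most like each member. Other genes were named after their values were seen. The members and lists were chosen with earlier results of these data known. Alternatives were other scalings, pseudocounts of 16 and 256, no filter, array weights, arrays left out and a block on animal number.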

Additional observations from a re-analysis of the deposited data

Results flagged for a closer look

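In 50 groups of 4 arrays, from the 10 member probe sets and 15 named pathway genes, 5 groups had an array far from the other 3, measured as the gap to the nearest array over the group's range, above Dixon's 95% critical value. Chance gives about 1 in 20 groups, and none of the 5 was in a reticulon or Rtn4r probe set. For Omg the ratio was 0.888, with olanzapine 19 at a log2 value of 10.28 and the others at 10.63 to 10.67. For Olfm1 it was 0.84, with olanzapine 14 at 13.53 and the others at 13.65 to 13.67. For Rtn4rl1 it was 0.912, with saline 19 at 8.77 and the others at 9.14 to 9.18. For Limk2 it was 0.832, with olanzapine 18 at 9.50 and the others at 8.72 to 8.85. For Dpysl2 it was 0.90, with saline 19 at 13.99 and the others at 14.24 to 14.27.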

How the results depend on the processing

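Rtn1 and Rtn2 kept a negative difference in all 16 alternatives, from -0.42 after median centring to -0.149 after quantile normalization for Rtn1 and from -0.41 without saline 14 to -0.209 without saline 15 for Rtn2. For Rtn1 only the other scalings could have turned the sign, since every olanzapine array lay below every saline array as deposited. The alternatives refit the same 8 arrays on which the family was selected, so no support is read from the kept signs. The number of members with a negative difference was 5 to 9 with 1 array left out and 5 to 8 in the other alternatives. With 1 array left out the count of called probe sets was 0 to 106, that of called members 0 to 1 and that of called pathway genes 0 to 2, the highest each time without saline 19; without olanzapine 9 there was 1 called probe set and no called member. Animal numbers 14 and 19 occur in both groups but the labels do not say that a number is shared by design, and deviations of same-numbered arrays correlated at 0.0746 and 0.109. With the replicate block on animal number, in which only these 4 arrays inform the difference, 6 probe sets were called and 991 had an unadjusted p under 0.05, and no member was called. That fit leaves almost no arrays to estimate each probe set's own spread, so its calls are not comparable with those of the main fit. The cause of the changes between alternatives was not tested. Dim probe sets, such as Rtn4r 1369293_at, are limited by low signal, and Ngfr, Tnfrsf19, Rock1 and Bace1 were too dim to be tested.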
